A study of Homo sapiens with 6 samples.

Results

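Chemokines are small secreted or membrane-anchored proteins that direct the movement of leukocytes, and this report describes 10 of them in CAL-27 cells given elesclomol and copper. The members were the table rows with the symbols CXCL1, CXCL2, CXCL3, CXCL5, CXCL8, CXCL10, CXCL16, CCL2, CCL20 and CX3CL1, 10 of 16809 genes listed. The treated group (labelled ESCU, here ES-Cu) was 3 libraries of CAL-27 that had received elesclomol with copper in equal proportion for 24 h, and the other group was 3 libraries of CAL-27 labelled as normal control (CON). CAL-27 is a single human tongue squamous carcinoma line, so all libraries share 1 tumour's genotype and the labels name no other cell type. Elesclomol is an ionophore that carries copper into cells, and the series concerns cuproptosis, a copper-dependent form of cell death. No source used here gives the dose or says whether control cells received a vehicle.

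The family is named by the spacing of the first cysteines of the protein, as CC, CXC or CX3C. CXCL1, CXCL2, CXCL3, CXCL5 and CXCL8 carry the residues ELR before the CXC motif. They attract neutrophils through the receptor CXCR2, and CXCL8 also does so through CXCR1. CXCL10 attracts activated T cells through CXCR3 and is a classical interferon-induced gene. CCL2 attracts monocytes through CCR2, and CCL20 attracts cells that bear CCR6. CXCL16 and CX3CL1 are made as membrane proteins on a mucin-like stalk and are released by the proteases ADAM10 and ADAM17. In epithelial cells the ELR chemokines and CCL20 are known targets of NF-kB, a transcription factor activated by interleukin-1 and tumour necrosis factor, and many of their mRNAs are short-lived through AU-rich elements in the 3' UTR.

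Promoter sequence was held in the RefSeq-derived table (GRCh38.p14) for 7 of the 10 members, and those of CCL2, CXCL16 and CX3CL1 were not used here. The 250 bases before the annotated start are shown for 6 of them, because the 4 neutrophil chemokines below changed by different amounts while 3 of their promoters are close relatives. Capitals mark letters that match a searched motif, and each sequence is written 5' to 3' on the strand of its gene.
CXCL8 promoter, chr4:73740319-73740568, plus strand: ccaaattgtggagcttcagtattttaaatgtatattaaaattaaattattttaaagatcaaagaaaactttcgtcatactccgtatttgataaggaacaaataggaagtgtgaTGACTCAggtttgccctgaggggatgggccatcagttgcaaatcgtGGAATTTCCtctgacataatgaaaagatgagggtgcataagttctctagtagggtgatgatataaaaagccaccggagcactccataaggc
CXCL2 promoter, chr4:74099196-74099445, minus strand: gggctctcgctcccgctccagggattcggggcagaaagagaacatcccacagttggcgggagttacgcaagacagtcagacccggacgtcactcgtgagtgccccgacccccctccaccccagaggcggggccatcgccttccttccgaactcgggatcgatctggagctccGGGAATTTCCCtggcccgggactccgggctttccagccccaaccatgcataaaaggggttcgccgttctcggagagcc
CXCL3 promoter, chr4:74038690-74038939, minus strand: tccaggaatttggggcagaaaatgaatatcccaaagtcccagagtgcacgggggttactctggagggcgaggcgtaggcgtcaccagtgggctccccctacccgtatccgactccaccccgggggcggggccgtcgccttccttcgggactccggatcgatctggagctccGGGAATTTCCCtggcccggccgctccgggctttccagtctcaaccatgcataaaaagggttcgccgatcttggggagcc
CXCL1 promoter, chr4:73869143-73869392, plus strand: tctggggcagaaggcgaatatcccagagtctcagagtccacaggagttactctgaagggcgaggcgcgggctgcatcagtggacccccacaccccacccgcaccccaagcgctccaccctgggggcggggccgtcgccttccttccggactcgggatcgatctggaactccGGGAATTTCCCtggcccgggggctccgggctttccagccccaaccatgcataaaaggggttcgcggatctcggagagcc
CCL20 promoter, chr2:227813592-227813841, plus strand: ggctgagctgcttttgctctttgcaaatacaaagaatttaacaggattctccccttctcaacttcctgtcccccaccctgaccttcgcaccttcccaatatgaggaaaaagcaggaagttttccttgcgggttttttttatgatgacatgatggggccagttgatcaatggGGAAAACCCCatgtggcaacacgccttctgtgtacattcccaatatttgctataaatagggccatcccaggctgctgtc
CXCL10 promoter, chr4:76023498-76023747, minus strand: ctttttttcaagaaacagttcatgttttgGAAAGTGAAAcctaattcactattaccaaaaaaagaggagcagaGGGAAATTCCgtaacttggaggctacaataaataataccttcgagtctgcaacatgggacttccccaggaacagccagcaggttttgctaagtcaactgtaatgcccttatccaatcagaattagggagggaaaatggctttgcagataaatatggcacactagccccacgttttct
The searched motifs were 2 forms of kappa B, the NF-kB element (a long form, GGG then any 3 bases then TTCC, and the short form GGAATTTCC), TGANTCA (AP-1), the interferon response motif (GAAA, any 2 bases, GAAA) and the heat shock motif (GAA, any 2 bases, TTC, any 2 bases, GAA), each on both strands, and the 2 kappa B motifs overlap each other. All 7 member promoters matched at least 1 of the 2 kappa B motifs. GGAATTTCC was found in 6 of 7, all but CCL20, against 0.428% of 27305 RefSeq promoters of the same length (1 per symbol) and 0.392% of the 9689 promoters of tested genes. The long form was found in 6 of 7, all but CXCL8, against 5.61% of all promoters. CXCL1, CXCL2 and CXCL3 share the same kappa B letters, GGGAATTTCCC, ending 69, 68 and 69 bases before the start, and CXCL5 has the same letters ending 81 bases before it. In a global alignment, CXCL1 and CXCL3 were identical at 84.0% of the 250 bases, CXCL2 and CXCL3 at 78.0% and CXCL1 and CXCL2 at 74.4%, against 47.6% for CXCL1 and CXCL8. The AP-1 motif was found in CXCL8 alone among the 7 (6.60% of all promoters), at 137 to 131 bases before the start. The interferon response motif was found in CXCL10 alone (3.07% of all promoters), and the heat shock motif in 0 of 7 (0.439%). These are matches of letters, which do not show binding.

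**Figure D1:**
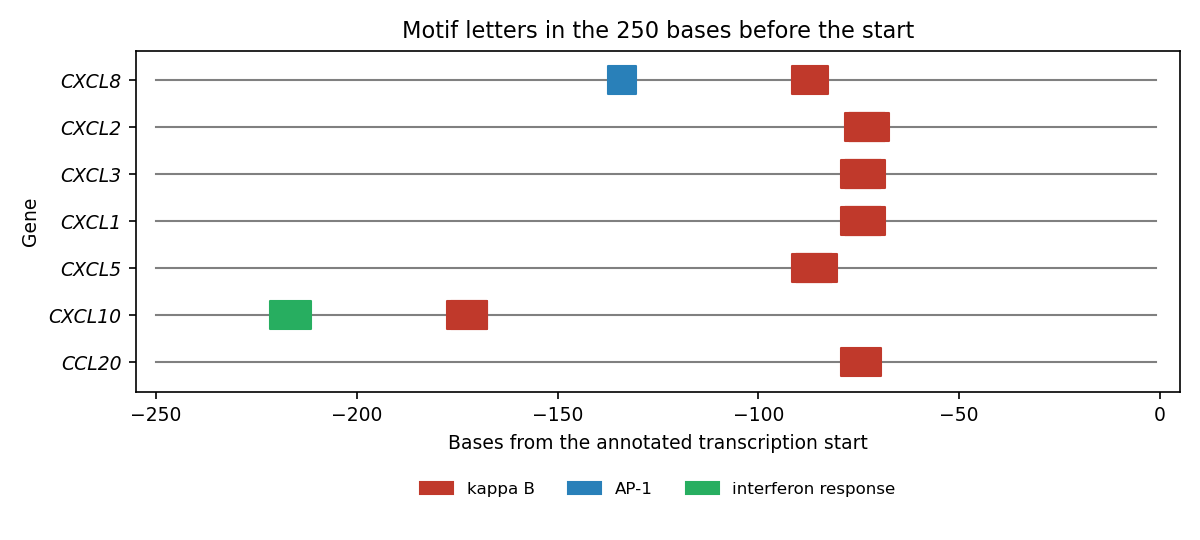
Position of motif letters in the 250 bases before the annotated start of 7 chemokine genes (x axis, bases from the start; 1 row per gene; boxes, matches on either strand). A kappa B match lies 68 to 91 bases before the start in 6 promoters and 168 to 177 bases before it in CXCL10, and an AP-1 match is present in CXCL8.

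The files hold TPM, each gene's share of all transcripts after correction for gene length. TPM keeps no read totals, so depth and counting error are unknown, and an exact 0 is reported as listed at 0. Between 14959 and 15051 genes lay above 0 in each library. For the test, log2(TPM + 1) in ES-Cu was set against control in the 11927 genes whose average over the 6 libraries reached 1 TPM, using two-sided limma with trend and p-values adjusted by Benjamini-Hochberg over all of them (threshold 0.05). Adjusted p-values below come from this limma test unless another scaling, filter or test is named. The fold change of the median tested gene, in log2 units, was -0.50 in the TPM as deposited, -0.07 with quantile normalization and 0.00 with median-of-ratios scaling, so "rose" and "fell" are used only for genes called with one sign in all 3 scalings. Whether each library is a culture of its own is not stated, so p-values here reflect library-to-library spread that could be technical. In bulk RNA a change per cell and a change in the number of expressing cells cannot be told apart.

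The 10 chemokines split. CXCL8, CCL20, CXCL3 and CXCL2 rose, CCL2 and CX3CL1 fell, CXCL1 and CXCL16 lay near the median gene, and CXCL10 and CXCL5 were too low to be tested. Of the 8 tested members, 4 were called higher and 4 lower on the deposited scale, against 13.6% higher and 70.0% lower of all tested genes. In all 8 the ES-Cu and control libraries did not overlap, 4 lying above and 4 below, against 14.0% above and 70.3% below among all tested genes. With one sign in all 3 scalings, 4 rose and 2 fell, against 13.5% higher and 31.2% lower of all tested genes. The median of the 8 was 0.39 on the log2 scale, beside -0.50 for all tested genes, but no member lay near 0.39. All 8 averaged over 1 TPM in both groups.

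**Figure D2:**
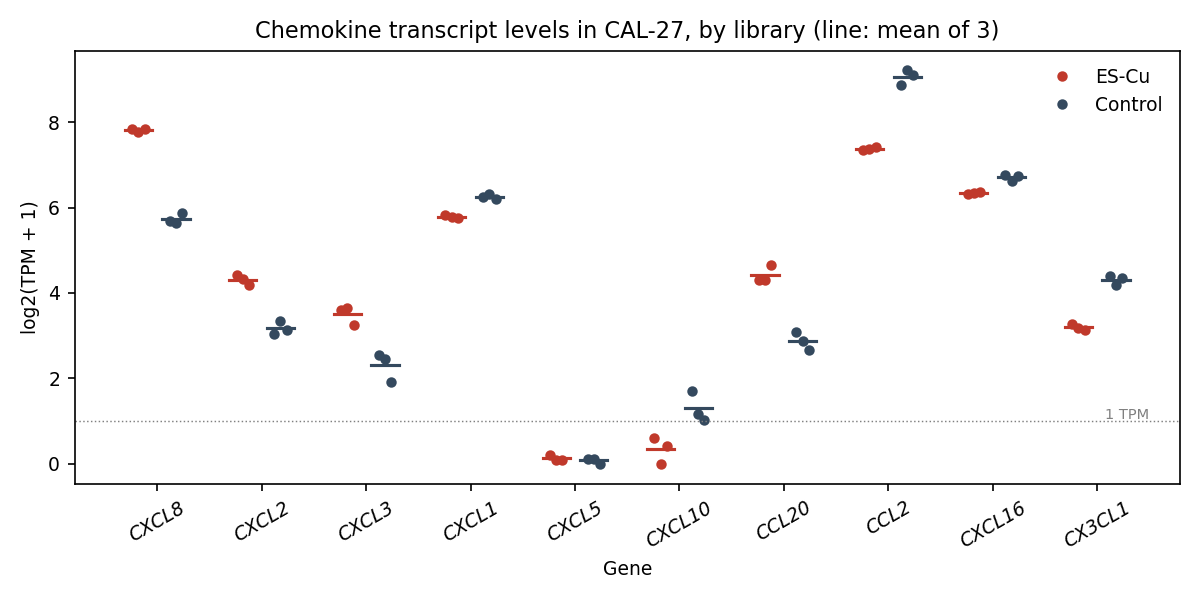
Level of each chemokine in each library (y axis, log2(TPM + 1); points, libraries; lines, means of 3; ES-Cu red, control dark). ES-Cu and control libraries do not overlap for any of the 8 tested genes, with CXCL8, CXCL2, CXCL3 and CCL20 above control, and CXCL5 lies near 0 in all 6 libraries.

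CXCL8 (interleukin-8; Entrez 3576, chromosome 4), the main neutrophil attractant of human epithelium, had the largest rise of the 8 tested members. Its level was 227.12, 215.95 and 229.27 TPM with ES-Cu, against 50.60, 48.69 and 57.94 TPM in control. Every ES-Cu library was above every control library, and the mean was 224 ± 7.15 TPM against 52.4 ± 4.88 TPM (SD, n = 3 per group), a 4.28-fold difference. The log2 fold change was 2.08 (SE 0.0619, 95% interval 1.94 to 2.22, adjusted p = 4.51e-10, limma), which ranked 90th from the top among the 11927 tested genes. Relative to the median gene it was 2.58 as deposited, 2.63 after median-of-ratios scaling and 2.40 under quantile normalization.

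CXCL2 (Entrez 2920) and CXCL3 (Entrez 2921), which encode close relatives also known as GRO-beta and GRO-gamma, rose by similar amounts. CXCL2 had 20.29, 19.08 and 17.10 TPM in ES-Cu, against 7.21, 9.18 and 7.76 TPM in control. CXCL3 had 11.23, 11.50 and 8.49 TPM in ES-Cu, against 4.82, 4.47 and 2.79 TPM in control. For both genes the groups did not overlap, and the third replicate was the lowest CXCL3 library within each group. The log2 fold change was 1.13 for CXCL2 (SE 0.0974, adjusted p = 8.55e-07, limma) and 1.20 for CXCL3 (SE 0.163, adjusted p = 3.62e-05, limma), and it was 1.64 and 1.67 after median-of-ratios scaling. Without 1 library at a time, CXCL3 ranged between 1.00 and 1.32 and stayed called.

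CXCL1 (GRO-alpha; Entrez 2919), the third of these relatives, did not follow them. It had 55.38, 53.96 and 52.93 TPM in ES-Cu, against 75.19, 78.48 and 72.14 TPM in control. The ES-Cu libraries all lay below control on the deposited scale, with a log2 fold change of -0.47 (SE 0.0490, adjusted p = 4.16e-06, limma), 0.04 above the median gene. After median-of-ratios scaling its sign turned, to 0.08 (95% interval -0.02 to 0.19, adjusted p = 0.146, limma), and under quantile normalization it was -0.16 (adjusted p = 0.0120, limma). CXCL1, CXCL2 and CXCL3 are similar in sequence, reads of 50 bases could be split among them, and their TPM is uncertain to that extent.

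CXCL5 (Entrez 6374), another neutrophil chemokine, was at 0.15, 0.07 and 0.07 TPM in ES-Cu, and at 0.09 and 0.09 TPM in 2 control libraries and listed at 0 in the other one. Its mean of 0.0783 TPM lay below the minimum for testing, and its groups overlapped. The 5 ELR chemokines among the members together summed to 301 to 314 TPM in the ES-Cu libraries, against 138 to 141 TPM in control. Most of that difference was CXCL8. In the RefSeq table the protein-coding genes between CXCL8 and CXCL2 on chromosome 4 are, in order, CXCL8, CXCL6, PF4V1, CXCL1, PF4, PPBP, CXCL5, CXCL3 and CXCL2. CXCL8 at one end and CXCL3 and CXCL2 at the other rose, whereas CXCL1, between them, did not, and PF4 and PPBP did not exceed 0.37 TPM in any library. CXCL6 and PF4V1 were not among the genes listed, so they have no values here.

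CCL20 (Entrez 6364, chromosome 2), a chemokine of inflamed epithelium, had the second largest rise among the 10. Its values were 18.75, 18.66 and 24.01 TPM in ES-Cu, against 7.54, 6.40 and 5.31 TPM in control. The groups did not overlap, and ES-Cu replicate 3 was the highest of its group. The mean was 20.5 ± 3.06 TPM against 6.42 ± 1.12 TPM (SD, n = 3 per group), and the log2 fold change was 1.54 (SE 0.125, 95% interval 1.26 to 1.81, adjusted p = 5.57e-07, limma). It was 2.04 after median-of-ratios scaling and 2.06 under quantile normalization, and 1.42 to 1.64 without any 1 library.

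CCL2 (Entrez 6347, chromosome 17), the monocyte attractant MCP-1, fell; it had the highest level of the family in control cells. It had 162.26, 165.49 and 168.88 TPM in ES-Cu, against 469.08, 590.45 and 544.09 TPM in control. The ES-Cu libraries lay close together and far below the lowest control library. The control mean was 3.23 times that of ES-Cu, and the log2 fold change was -1.68 (SE 0.0688, 95% interval -1.83 to -1.53, adjusted p = 4.46e-09, limma), 1.17 below the median gene. Median-of-ratios scaling gave -1.12 and quantile normalization -1.56, both called. Among all tested genes on the deposited scale it ranked 204th from the bottom.

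CXCL10 (Entrez 3627, chromosome 4), the interferon-induced member, was at 0.53 and 0.34 TPM in ES-Cu replicates 1 and 3 and listed at 0 in replicate 2, against 2.24, 1.25 and 1.04 TPM in control. All ES-Cu values lay below all control values. Its mean over the 6 libraries, 0.900 TPM, was under the minimum for testing; with no filter on low values its log2 fold change was -0.95 (adjusted p = 0.00454, limma), a value that the added 1 TPM pulls towards 0.

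The 2 membrane-anchored members differed in size of change. CX3CL1 (fractalkine; Entrez 6376, chromosome 16) had 8.68, 8.13 and 7.75 TPM in ES-Cu, against 20.20, 17.34 and 19.25 TPM in control. It fell, with a log2 fold change of -1.12 (SE 0.0816, adjusted p = 2.45e-07, limma), -0.60 after median-of-ratios scaling and -0.60 under quantile normalization. CXCL16 (Entrez 58191, chromosome 17) had 78.98, 79.71 and 81.67 TPM in ES-Cu, against 107.53, 97.29 and 105.01 TPM in control. Its log2 fold change was -0.36 as deposited (adjusted p = 3.16e-05, limma) and 0.19 after median-of-ratios scaling (adjusted p = 0.00596, limma), so its direction depends on the scale, and under quantile normalization it was not called (-0.08, adjusted p = 0.207, limma).

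**Figure D3:**
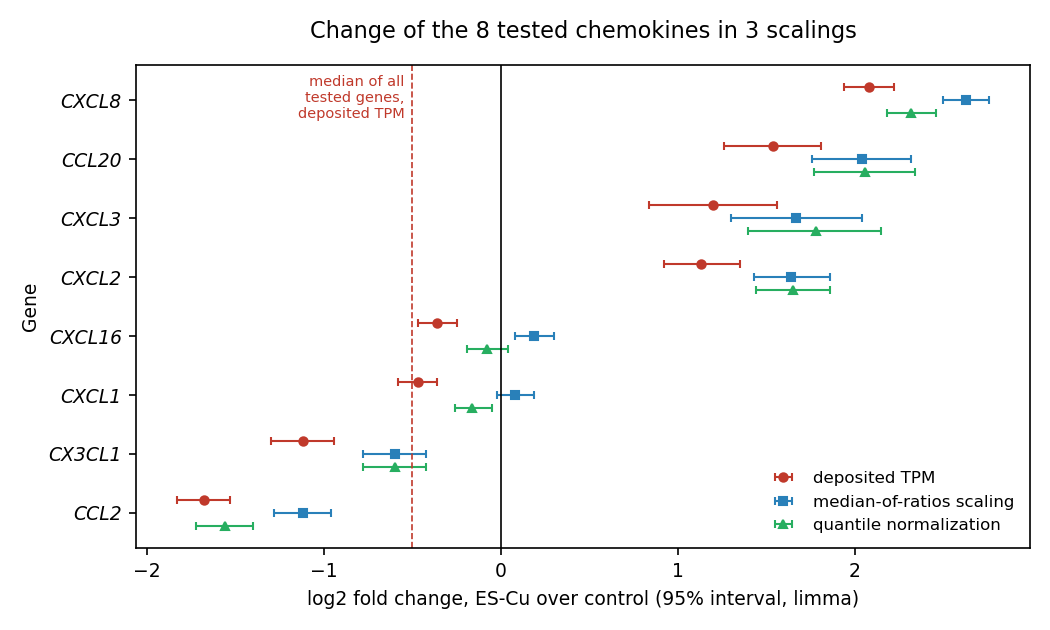
Log2 fold change of ES-Cu over control for the 8 tested chemokines (x axis; points, limma estimates; bars, 95% intervals) under 3 scalings of the libraries; the dashed line is the median tested gene on the deposited scale. CXCL8, CCL20, CXCL3 and CXCL2 lie above 0 and CX3CL1 and CCL2 below 0 in every scaling, while CXCL16 and CXCL1 change sign.

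Because a ratio of 2 genes within 1 library does not depend on how the library was scaled, 6 ratios were compared. CXCL8 stood at 1.40, 1.30 and 1.36 times CCL2 in the ES-Cu libraries, against 0.108, 0.0825 and 0.106 times in control, a difference of 3.78 on the log2 scale. CCL20 relative to CCL2 differed by 3.36. Within the neutrophil chemokines, the ratio of CXCL8 to CXCL1 was 4.1, 4.0 and 4.33 in ES-Cu, against 0.673, 0.620 and 0.803 in control, a log2 difference of 2.58. CXCL2 and CXCL3 relative to CXCL1 differed by 1.71 and 1.87, and CX3CL1 relative to CXCL16 by -0.84. In each of the 6 the ES-Cu and control libraries did not overlap, which gives the smallest exact two-sided permutation p that 3 against 3 libraries allow (p = 0.1, also 0.1 after adjustment over the 6 ratios), so none can pass the threshold.

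The order of the chemokines by level changed between the groups. In ES-Cu it ran CXCL8, CCL2, CXCL16, CXCL1, CCL20, CXCL2, CXCL3, CX3CL1, CXCL10 and CXCL5, and the ranges of the libraries overlapped for the neighbours CCL20 and CXCL2, CXCL3 and CX3CL1, and CXCL10 and CXCL5. In control it ran CCL2, CXCL16, CXCL1, CXCL8, CX3CL1, CXCL2, CCL20, CXCL3, CXCL10 and CXCL5, with overlap between CXCL2 and CCL20 alone. Of the summed TPM of the 27 chemokine genes in the table, CXCL8 made up 37.1% ± 0.814 in ES-Cu and 6.41% ± 0.717 in control (SD, n = 3 per group). CCL2 made up 27.4% ± 0.436 in ES-Cu and 65.0% ± 3.18 in control. CXCL16 (13.3% against 12.6%) and CXCL1 (8.96% against 9.19%) held nearly the same share in ES-Cu as in control. The sum itself, on the deposited scale, was 597 to 611 TPM in ES-Cu, against 761 to 870 TPM in control. The median tested gene was also lower on that scale (log2 fold change -0.50), and the sum was not compared in the other scalings.

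**Figure D4:**
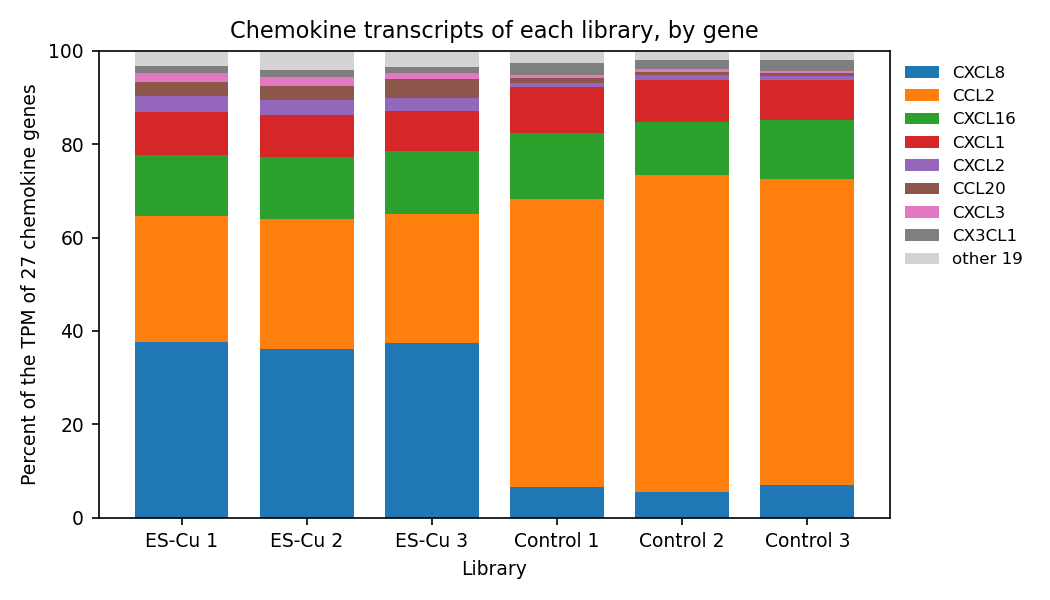
Share of each gene in the summed TPM of 27 chemokine genes, per library (y axis, percent, from 0 to 100; bars, libraries; colours, genes). CXCL8 is the largest part in the 3 ES-Cu libraries (36.2% to 37.7%), and CCL2 in the 3 control libraries (61.6% to 67.9%).

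Chemokines outside the 10 were mostly at the floor. Of 38 others looked up, 17 were in the table and 6 were tested, but 4 of these (CXCL11, CCL3, CCL5 and CCL28) reached 1 TPM on average in 1 group only, so their calls are not counted here. CCL3 (MIP-1 alpha), which attracts monocytes and lymphocytes, was at 8.94, 9.43 and 11.27 TPM in ES-Cu and listed at 0 in all 3 control libraries. CCL3 has near-identical gene copies, and CCL3L1 was listed at 0 in ES-Cu and at 0.36 and 0.74 TPM in 2 control libraries. CCL26 (eotaxin-3), an eosinophil attractant, had 4.46, 10.23 and 3.72 TPM in ES-Cu, against 2.74 and 1.26 TPM in 2 control libraries and 0 in the other one (log2 fold change 1.70, adjusted p = 0.00303, limma), with wide spread in each group. XCL1 (lymphotactin) fell, with 1.27, 1.45 and 1.70 TPM in ES-Cu against 5.14, 6.31 and 5.54 TPM in control (log2 fold change -1.43, adjusted p = 6.78e-07, limma); its near-identical copy XCL2 did not exceed 0.88 TPM in any library.

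Receptors for these ligands were scarce in the cells that made them. Of 23 receptor genes, 19 were in the table and 3 were tested, of which CXCR2 and ACKR3 reached 1 TPM on average in control only, so the receptors' calls are not counted here. CXCR1 was at 0.15 and 0.27 TPM in 2 ES-Cu libraries and listed at 0 in the other 4. CXCR2, the shared receptor of the ELR chemokines, was at 0.78, 0.59 and 0.70 TPM in ES-Cu, against 1.97, 1.92 and 2.83 TPM in control. CXCR3, CCR2 and CCR6, the receptors of CXCL10, CCL2 and CCL20, did not exceed 0.18 TPM in any library. CCRL2, an atypical receptor, averaged 6.69 ± 0.707 TPM in ES-Cu and 10.2 ± 0.670 TPM in control (log2 fold change -0.55, adjusted p = 2.22e-04, limma), but was not called after median-of-ratios scaling (adjusted p = 0.612, limma) and turned sign under quantile normalization (0.03). ACKR3, a scavenger of CXCL11 and CXCL12, was at 0.19, 0.09 and 0.18 TPM in ES-Cu, against 2.39, 2.52 and 2.17 TPM in control. CXCR2 and ACKR3 were named after their values were seen.

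Genes of the NF-kB pathway and its inducers were called in each direction, at shares that depended on the scaling. Of 29 tested, 5 rose and 6 fell in all 3 scalings, beside 13.5% and 31.2% of all tested genes. On the deposited scale 5 were called higher and 17 lower, beside 13.6% and 70.0% of all tested genes. After median-of-ratios scaling 17 were called higher and 6 lower, beside 4532 and 4266 of the 11927 tested genes. Under quantile normalization 14 were called higher and 8 lower, beside 3749 and 4756 of the 11927 tested genes. Their median log2 fold change was -0.22, beside -0.50 for all tested genes. IL1A, an interleukin-1 that keratinocytes store and release, averaged 126 ± 4.23 TPM in ES-Cu and 65.5 ± 4.04 TPM in control (log2 fold change 0.94, adjusted p = 3.89e-08, limma). BCL3, an atypical IkB protein, fell to 10.35, 8.98 and 10.73 TPM in ES-Cu, against 36.24, 32.61 and 34.89 TPM in control (log2 fold change -1.69, adjusted p = 9.42e-09, limma). IKBKB, the kinase IKK-beta that frees NF-kB, fell to 3.94 ± 0.496 TPM in ES-Cu, against 10.6 ± 1.64 TPM in control (-1.23, adjusted p = 2.77e-06, limma). Named after their values were seen, TNFAIP3 (0.93) and NFKBIA (-0.69), 2 inhibitors that are themselves targets of NF-kB, moved in opposite directions, and TNF fell (-0.89).

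**Figure D5:**
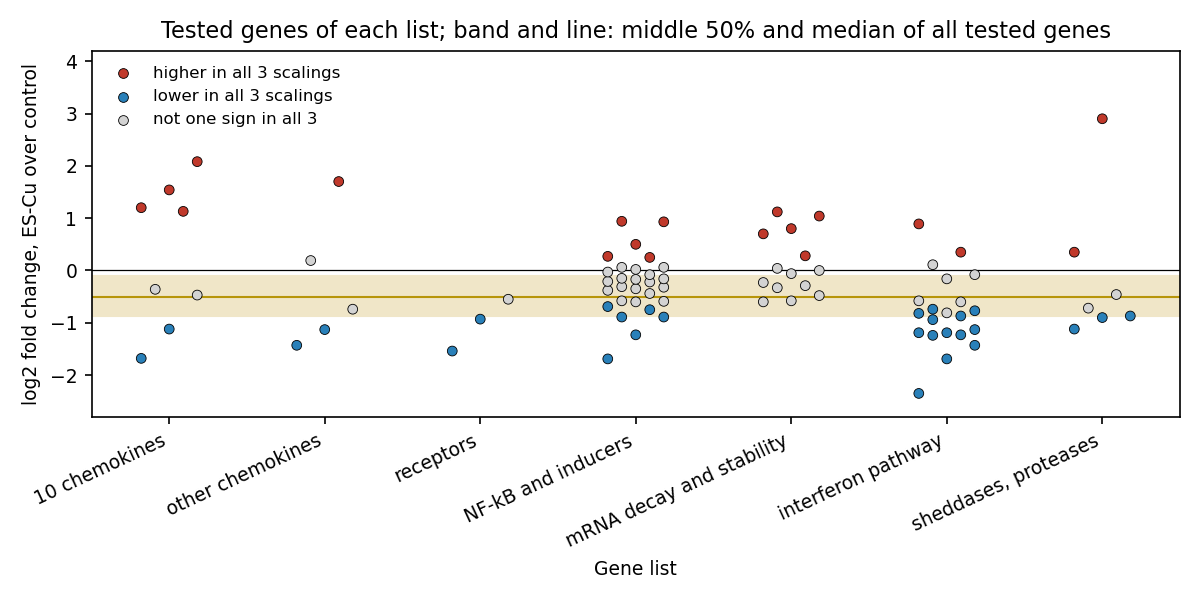
Log2 fold change of ES-Cu over control for the tested genes of each list (y axis; points, genes; red and blue, higher or lower in all 3 scalings; grey, neither; band and line, middle 50% and median of all tested genes). CCL3, listed at 0 in control, is not drawn, and CXCL11, CCL5, CCL28, CXCR2 and ACKR3 reached 1 TPM in 1 group only; 4 of the 8 tested chemokines lie above the band, and most interferon pathway genes lie in or below it.

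AU-rich elements in a 3' UTR mark an mRNA for decay. Each member's 3' UTR in its principal GENCODE transcript (release 29) was scanned for the pentamer ATTTA and the nonamer TTATTTATT, written as DNA; this scan was added after the data were seen. The stretches of 24 bases with most pentamers are shown for the 4 ELR chemokines expressed above 1 TPM, with the pentamers in capitals.
CXCL8 3' UTR: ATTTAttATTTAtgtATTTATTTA
CXCL2 3' UTR: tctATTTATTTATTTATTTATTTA
CXCL3 3' UTR: gggttctacttATTTAtgtATTTA
CXCL1 3' UTR: agaagtcttctATTTATTTATTTA
The nonamer was found in 5 of the 10 members (CXCL1, CXCL2, CXCL3, CXCL8 and CX3CL1), against 8.58% of 11595 tested genes with a 3' UTR. CXCL2 held 10 pentamers in 721 bases, CXCL8 held 9 in 1252, CXCL3 held 7 in 673, CXCL1 held 5 in 706 and CCL20 held 3 in 451. CCL2 and CXCL16 held 1 each, in 376 and 977 bases. CXCL5, which lacked the nonamer, held 11 pentamers in 1995 bases, CX3CL1 held 2 in 2016 and CXCL10 held 1 in 813. Per kilobase the members' median was 6.08 pentamers, beside 1.61 for tested genes. The nonamer was present in genes that rose (CXCL8, CXCL2, CXCL3), in one that fell (CX3CL1) and in CXCL1, and CCL20 rose without it.

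Of 14 tested genes for mRNA decay and stability, 5 rose and 0 fell in all 3 scalings, beside 13.5% and 31.2% of all tested genes. As deposited 5 were called higher and 6 lower, beside 13.6% and 70.0% of all tested genes. Their median log2 fold change on that scale was -0.03, beside -0.50 for all tested genes. After median-of-ratios scaling 10 were called higher and 0 lower, beside 4532 and 4266 of the 11927 tested genes. ZFP36, tristetraprolin, a protein that binds AU-rich elements and promotes decay, averaged 27.2 ± 0.206 TPM in ES-Cu and 12.7 ± 0.161 TPM in control (log2 fold change 1.04, adjusted p = 4.57e-08, limma). Its relative ZFP36L1 averaged 77.7 ± 4.43 TPM in ES-Cu and 35.1 ± 0.807 TPM in control (1.12, adjusted p = 1.41e-08, limma). RC3H1 (roquin-1), which binds stem-loops in cytokine mRNAs, had 10.49, 9.87 and 9.78 TPM in ES-Cu, against 5.53, 5.54 and 5.03 TPM in control (0.80, adjusted p = 4.91e-06, limma). The mRNAs of these decay factors thus rose in the same libraries as CXCL8, CXCL2, CXCL3 and CCL20; mRNA half-lives were not measured.

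Interferon pathway genes, the known inducers of CXCL10 among them, were lower more often than higher, as were all tested genes on the deposited scale. Of 21 tested, 2 rose and 13 fell in all 3 scalings, beside 13.5% and 31.2% of all tested genes. As deposited 2 were called higher and 16 lower, beside 13.6% and 70.0% of all tested genes, with a median of -0.82 beside -0.50 for all tested genes. After median-of-ratios scaling 5 were called higher and 14 lower, beside 4532 and 4266 of the 11927 tested genes. IFIT1, an interferon-induced RNA-binding protein, fell to 1.43 ± 0.205 TPM in ES-Cu, against 11.4 ± 1.62 TPM in control (log2 fold change -2.35, adjusted p = 2.39e-08, limma). OAS1, an antiviral enzyme, had a log2 fold change of -1.69 (adjusted p = 1.57e-08, limma) and IFIT3 one of -1.43 (adjusted p = 3.53e-08, limma). The 2 that rose were SOCS1 (0.89) and SOCS3 (0.35), feedback inhibitors of JAK kinases. CXCL11, a relative of CXCL10 with the same receptor, was at 0.53, 0.49 and 0.90 TPM in ES-Cu, against 1.99, 2.03 and 1.24 TPM in control.

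Proteases that act on chemokines, with their regulators, were looked up as well. Of 7 tested sheddases, their regulators and other proteases, 2 rose and 3 fell in all 3 scalings, beside 13.5% and 31.2% of all tested genes, and RHBDF1 and DPP4 did neither. As deposited 2 were called higher and 5 lower, beside 13.6% and 70.0% of all tested genes, so the lower calls were near the share of all genes. ADAM10 fell to 46.3 ± 1.03 TPM in ES-Cu, against 85.3 ± 1.77 TPM in control (log2 fold change -0.87, adjusted p = 2.38e-08, limma), whereas ADAM17 averaged 41.0 ± 1.33 TPM in ES-Cu and 31.9 ± 0.710 TPM in control (0.35, adjusted p = 7.78e-05, limma). RHBDF2 (iRhom2), which carries ADAM17 to the cell surface, fell (-0.90, adjusted p = 2.96e-07, limma). MMP1, a collagenase, averaged 45.8 ± 3.80 TPM in ES-Cu and 5.29 ± 0.643 TPM in control (2.90, adjusted p = 6.26e-10, limma). ADAM17 was named after its values were seen.

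The tested genes most like CXCL8 over the 6 libraries, by the Euclidean distance of centred log2(TPM + 1) values, were HSPA8, a constitutive HSP70 chaperone (distance 0.183), FOSL1, an AP-1 factor (0.189), and RNF223 (0.213). Most like CCL2 by the same measure were APBA1 (0.0569), LMNB1, which encodes lamin B1 (0.145), and EME1, a DNA repair nuclease subunit (0.164). APBA1 was at 0.13, 0.12 and 0.19 TPM in ES-Cu, against 2.23, 2.96 and 2.69 TPM in control, so its distance rests on the added 1 TPM: with 0.1 TPM added its log2 fold change was -3.47, beside -1.68 for CCL2. Likeness over 2 groups of 3 says nothing of shared control.

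Markers were looked up because chemokines are also made by leukocytes, endothelium and fibroblasts. Levels and sums of markers are given on the deposited scale. All 9 squamous epithelial markers were in the table. KRT5, the basal keratin, was at 853 ± 21.6 TPM in ES-Cu and 853 ± 22.8 TPM in control. After median-of-ratios scaling its log2 fold change was 0.56 (adjusted p = 5.04e-07, limma). KRT14, the partner of KRT5, was at 4.19 ± 1.1 TPM in ES-Cu and 4.73 ± 0.44 TPM in control. TP63, the transcription factor of basal squamous cells, fell to 24.5 ± 0.922 TPM in ES-Cu, against 86.8 ± 1.34 TPM in control (log2 fold change -1.78, adjusted p = 2.7e-10, limma), and CDH1, which encodes E-cadherin, fell to 71.3 ± 3.01 TPM in ES-Cu, against 173 ± 2.33 TPM in control (-1.27, adjusted p = 1.49e-09, limma). SFN (0.95) and KRT6A (0.43) rose, and KRT17 (-0.41), DSG3 (-0.81) and EPCAM (-0.13) were called lower as deposited but not in all 3 scalings. EPCAM was called higher after median-of-ratios scaling (0.42, adjusted p = 2.03e-05, limma). The sum of the 9 was at least 2930 TPM in every ES-Cu library, against 2530 to 2650 TPM in control, and without SFN it was 1710 to 1740 TPM in ES-Cu, against 1920 to 1990 TPM in control. Of 8 leukocyte markers 6 were in the table, with a sum of 51.8 to 57.0 TPM in ES-Cu, against 64.7 to 72.2 TPM in control, nearly all of it CD68; PTPRC, which encodes the pan-leukocyte antigen CD45, did not exceed 0.04 TPM in any library. The 5 endothelial markers summed to 1.28 to 1.90 TPM in ES-Cu, against 7.19 to 7.56 TPM in control, nearly all of it CDH5, and PECAM1 did not exceed 0.15 TPM. Of 6 fibroblast markers 5 were in the table, at 4.72 to 5.26 TPM in ES-Cu against 11.4 to 11.6 TPM in control, mainly COL1A1. Any part of these markers' differences in the fall of CCL2 was not tested.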

How the data were processed

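Per the labels' protocols, CAL-27 total RNA was read from one end (50 bases) by BGISEQ500. The deposited table holds TPM values made by the authors, which sum to one fixed total in each library. HISAT and Bowtie2 are named without versions in the submitters' processing notes, which also give GRCm38.p6, a mouse build, although the genes are human; the tool that gave TPM, and its annotation, are not given in the sources used here. Of the 16809 Entrez identifiers, the human RefSeq gene table held 16753 (99.7%). No columns of other samples were present.

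The limma test (version 3.58.1, R 4.3.3; trend, no block) took log2(TPM + 1) of genes averaging 1 TPM or more; fold changes on this scale understate changes of low genes. Within-library ratios used exact permutation tests in scipy 1.17.1. Promoters were aligned with Biopython 1.88. The code was tested on simulated data. The settings varied were the pseudocount (0.1, 0.5), the minimum level (none, 5 TPM), the scaling (2 others), the trend, the replicate block and the libraries, each left out in turn.

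The members, gene lists, tests and the requirement of one sign in 3 scalings were chosen with earlier results of these data known. The genes named were the 10 members, up to 3 genes of each list with the largest change, an adjusted p under 0.05 and 5 TPM or more on average in one group, and the 3 genes most like CXCL8 and CCL2; exceptions are marked as named after their values were seen, as are SOCS1, SOCS3, CXCL11, TP63, CDH1, the other squamous markers and the receptors and markers given by level.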

Additional observations from a re-analysis of the deposited data

How the results depend on the processing

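The calls of CXCL8, CXCL2, CXCL3, CCL20, CCL2 and CX3CL1 kept their direction and stayed past the threshold under all 14 alternatives. After median-of-ratios scaling CXCL1 (0.08) and CXCL16 (0.19) turned to positive log2 fold changes, which left 2 members called lower and, with CXCL16, 5 called higher, and CCRL2 turned to 0.03 under quantile normalization. Those scalings centre the median gene, and gave 4532 higher and 4266 lower (median of ratios) and 3749 higher and 4756 lower (quantile) of all tested genes, against 1628 and 8351 as deposited. In the same order of scalings, NF-kB and inducer genes were 17 and 14 higher and 6 and 8 lower. Decay and stability genes were 10 and 9 higher and 0 and 3 lower. Interferon pathway genes were 5 and 5 higher and 14 and 13 lower. Sheddases and proteases were 3 lower under quantile normalization. Counts of other chemokines and receptors include genes that reached 1 TPM in 1 group only. With a filter of 5 TPM fewer genes were tested, and other chemokines had 0 higher and 0 lower, receptors 1 lower, interferon genes 1 higher and sheddases and proteases 3 lower. Of all 9498 genes tested with that filter, 1443 were higher and 6629 lower. With no filter, other chemokines had 5 lower of 17, and receptors 1 higher and 6 lower of 19. Beside them, 1840 were higher and 9140 lower of all 16809 genes. The calls that this added in these lists were of genes averaging under 1 TPM.

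Leaving out any 1 library kept 4 members higher and 4 to 5 lower, beside 1493 to 1590 higher and 8070 to 8323 lower of all tested genes. The fifth was CXCL10, which reached the 1 TPM minimum only without ES-Cu replicate 2 or 3. It did so through control alone, as none of its ES-Cu values exceeded 0.53 TPM. All other named genes stayed called in their direction. Over all tested genes, deviations of same-numbered libraries correlated at 0.021, -0.034 and 0.011. These values show no strong pairing by replicate number, but cannot exclude a shared culture or batch. With a replicate block 4 members were higher and 4 lower, and 1614 and 8343 of all tested genes. The unknown depth limits what can be said of CXCL5 and CXCL10, and groups of 3 were not examined for outlying libraries.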
